A study of Capra hircus with 24 samples.

Results

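Matrix glycoproteins, laminins and lysyl oxidases were followed in RNA-seq of hair follicle papilla cells of cashmere goats (Capra hircus). The genes were taken by name, 47 in all: 5 lysyl oxidases, the proteins of elastic fibres and microfibrils, laminin chains and their basement membrane partners, adhesive glycoproteins, and matricellular proteins. A gene was kept where its deposited value was 1 or more in at least 3 of the 24 libraries, which held for 45 of the 47 and for 13049 of the 20326 genes in the tables. MATN2, at 0.13 or less in every library, fell below that limit, and LAMB2 was not analysed here. Of the genes kept, SMOC1 reached 1 in 12 libraries, FBN2 and TNN in 18 each and LOXL4 in 19, and the other 41 did so in all 24.

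Papilla cells came from secondary follicles, the source of the fine cashmere fibre, and from primary follicles, the source of guard hair. Per the labels they were collected in October, in anagen, or in June, in early anagen, from males or females, so there were 8 groups: secondary October male, secondary October female, secondary June male, secondary June female, primary October male, primary October female, primary June male and primary June female. Each had 3 libraries, and no treatment or genotype is labelled. Month and stage of the hair cycle go together in the labels and cannot be told apart. Separate animals or cultures are not stated behind the 3 replicates of a group, so p-values here measure the spread between these libraries only. Nor do the labels give the age of the animals, pooling, or whether the cells were cultured.

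The dermal papilla is the mesenchymal core of the follicle bulb and sits in a voluminous extracellular matrix, bounded from the hair matrix epithelium by a basement membrane. Lysyl oxidases oxidise lysines in collagens and elastin so that fibres become cross-linked. Fibrillins and microfibril proteins form the scaffold on which elastin is laid down with the help of fibulins. Laminins are trimers of an alpha, a beta and a gamma chain and are joined by nidogens, perlecan and agrin into the sheet of the basement membrane. Fibronectin, tenascins, periostin and thrombospondins bind cells and growth factors.

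Values are the authors' normalised expression signal, 1 per gene and library, with library totals between 959766 and 1045876. Their scaling by transcript length is not stated, so levels are compared between groups and not between genes. Depth is unknown, and precision rests on the spread between libraries, which was small: across genes, libraries of 1 group correlated at 0.993 to 0.997 on the log scale and libraries of different groups at 0.954 to 0.992. All 8 fibroblast markers were measured in every group. SOX2, 1 of 12 papilla markers found, averaged 14.2 in secondary October male libraries but 0.26 to 0.333 in the other 3 secondary groups. It averaged 12.4 to 15.9 in the 4 primary groups. Sums of the 12 papilla markers overlapped between follicle types, at 535 to 755 in secondary and 519 to 715 in primary libraries. VCAN had its highest mean, 501, in secondary October female libraries, and CORIN, PROM1 and SOX18 averaged 0.833 or less in each group. Keratinocyte markers (14 genes found) summed to 311.8 to 339.3 in secondary October female libraries and to between 6.81 and 90.7 in all other libraries (82.1 to 90.7 in primary October male libraries), with KRT1 at 0.01 or less on average in each group. They moved with the month: averaged over the sexes, all 12 tested were higher in October than in June in secondary cells (median log2 difference 1.18) and in primary cells (0.60), with 10 higher and 1 lower in secondary males and 8 higher in primary males. Smooth muscle and sheath markers (8 genes) summed to 17964 to 18567 in primary June male libraries and to between 10429 and 15012 in the others. Of 7 tested, 6 were lower in June in secondary cells relative to primary cells (median -0.82), and 5 were higher and 1 lower in October than in June in secondary cells (0.51). Immune markers (5 genes) summed to 33.6 to 40.2 in secondary June male libraries and to between 9.98 and 23.1 in the others. Of these, PTPRC, the pan-leukocyte marker, averaged 0.007 or less in each group. CD68 and CD14 averaged 21.9 and 14.8 in secondary June male libraries. Endothelial markers summed to at most 2.98. The part of these markers in the results was not tested. In bulk RNA, fewer cells of a type and less RNA per cell cannot be told apart.

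A difference below is the difference of group means of log2(value + 1), secondary minus primary or October minus June. Unless a sex is named, males and females have equal weight. It is called where limma's adjusted p, over 13049 genes, is under 0.05. In October 21 genes of the 45 were higher and 13 lower in secondary than in primary cells, where 31.5% of all genes tested were called (17.5% higher, 14.1% lower), and the median difference was 0.10. In June 10 were higher and 25 lower, where 61.9% of all genes were called (31.6% higher, 30.3% lower), and the median was -0.19. October against June gave 30 higher and 9 lower in secondary cells (62.9% of all genes called, 29.0% higher, 33.9% lower) and a median of 0.28; the keratinocyte markers also rose here. The same comparison in primary cells gave 17 higher and 18 lower (60.9% of all genes, 28.6% higher and 32.3% lower) and a median of 0.03. The interaction, which is secondary minus primary in October less the same in June, was positive for 29 genes and negative for 8, with 46.2% of all genes called (23.3% positive, 22.9% negative) and a median of 0.29. A positive interaction does not mean a wider gap in October: for LAMA2, LOX, ECM2, ELN and LAMB1 it was positive with a difference further below 0 in June. The median over all genes lay between -0.011 and 0.0041 in these 5 comparisons. Differences of at least 2-fold were called in secondary against primary cells for 3 genes in October (3 higher; 0.743% of all genes) and for 9 in June (3 higher, 6 lower; 4.29% of all genes). October against June gave 8 such genes in secondary cells (7 higher, 1 lower; 3.72% of all genes) and 4 in primary cells (2 higher, 2 lower; 2.63%). After rescaling each library to a common total, the split was 17 higher and 16 lower for follicle type in October, and 23 higher and 15 lower for month in primary cells.

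**Figure D1:**
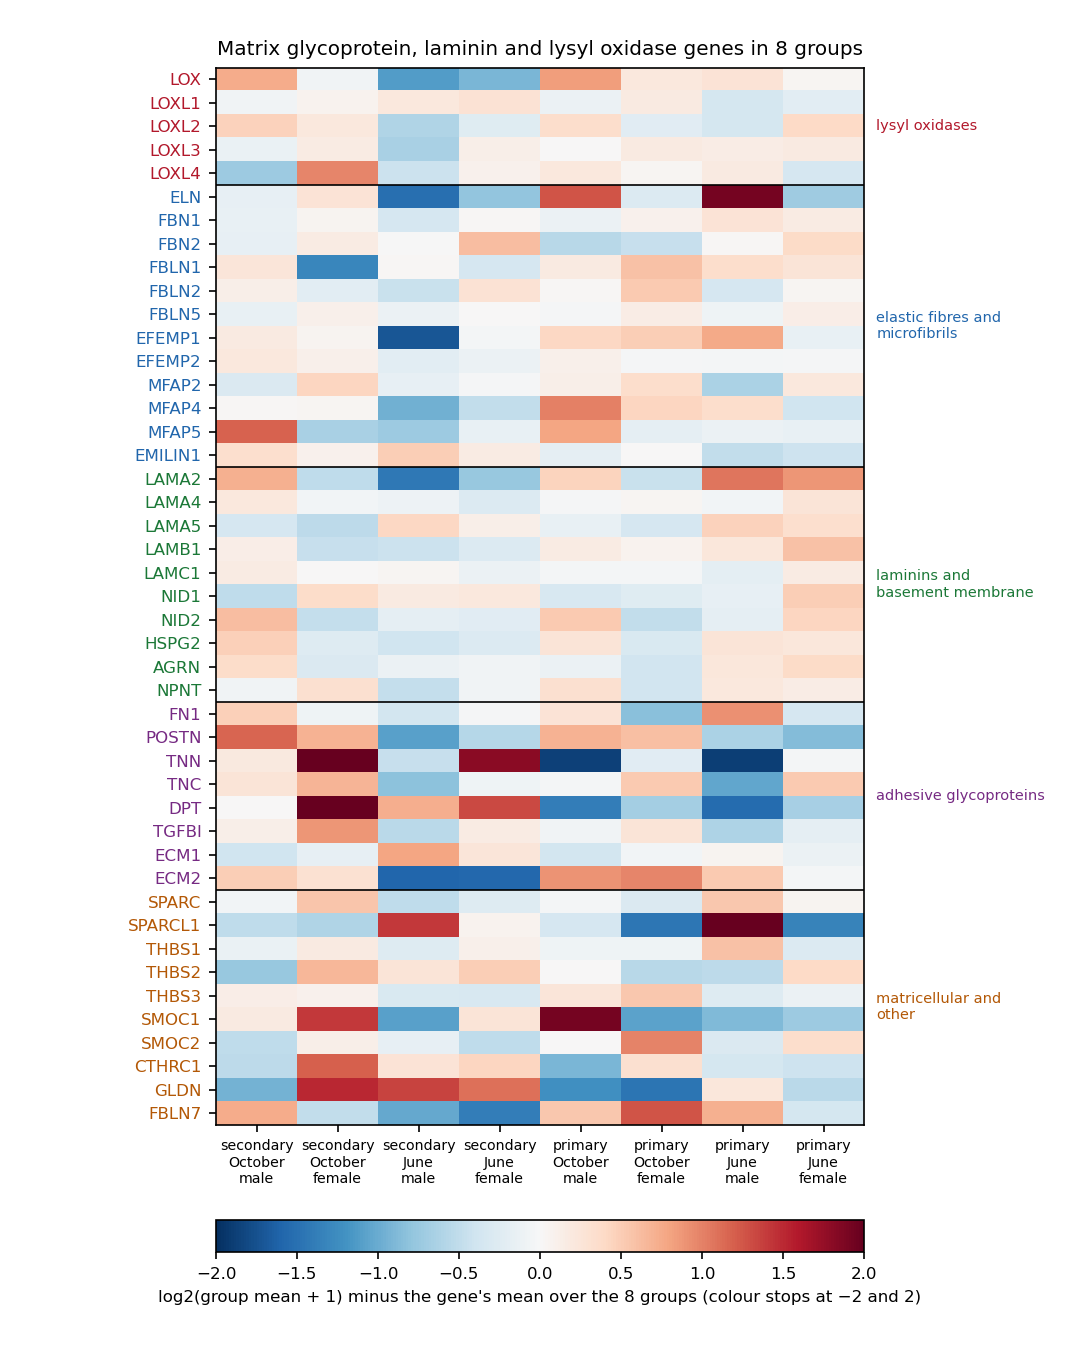
Mean level of the 45 genes (rows, by role) in the 8 groups (columns), as log2 of the group mean plus 1 minus the gene's mean over the 8 groups; red is above and blue below that mean. Secondary June male libraries have the lowest group mean for 17 genes, the most of any group, and secondary October female libraries the highest for 10. Shares over all genes were not computed.

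The groups differed in how many of the 45 genes they held at an extreme. Shares over all genes were not computed for this, so the counts cannot be called particular to these genes. Secondary October female libraries had the highest group mean for 10 genes and the lowest for 3. Secondary October male libraries were highest for 7 and lowest for 6, and secondary June male libraries highest for 2 and lowest for 17. Primary June male libraries were highest for 8, among them ELN, FN1, SPARCL1 and THBS1, and also lowest for 8.

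Of the 5 lysyl oxidases, 4 were higher and 1 lower in October than in June in secondary cells, where 62.9% of all genes were called. These are averages over the sexes. LOX and LOXL2 were higher and LOXL1 lower in both sexes. LOXL3 was called in males (0.53) and not in females (0.06). LOXL4 was lower in males (-0.30) and higher in females (0.89). In primary cells 3 were higher and 0 lower by limma's test, and 0 were lower at an unadjusted p under 0.05, which is 60.0% of the family against 60.9% of all genes. Between follicle types, 1 was higher and 1 lower in secondary cells in October (31.5% of all genes called), and 1 was higher and 3 lower in June (61.9%). LOX, the founding enzyme of the family, had October values of 1100.5, 1318 and 1264 in secondary male and 766, 669 and 642 in secondary female libraries, against 1295, 1352 and 1266 in primary male and 784, 915 and 836 in primary female libraries. June values of LOX were 345, 321 and 341 in secondary male and 394, 390.0 and 382 in secondary female libraries, against 901, 870.4 and 886 in primary male and 776, 784 and 692 in primary female libraries. Secondary June libraries were the lowest for LOX without overlap with any other group, and the October male groups of both follicle types were the highest and overlapped each other. October exceeded June for LOX in secondary cells by 1.35 (SE 0.048, limma adjusted p = 1.41e-16), with 1.86 in males and 0.83 in females, and in primary cells by 0.36 (SE 0.048, limma adjusted p = 9.45e-07). In primary females the LOX difference was 0.17 (SE 0.068), and the call there was lost without primary June female replicate 3 (0.11), primary October female replicate 2 (0.11) or primary October female replicate 3 (0.18). Secondary cells were lower than primary cells, with a difference of -0.19 (SE 0.048, limma adjusted p = 0.0039) in October and -1.17 (SE 0.048, limma adjusted p = 1.44e-15) in June, and the interaction was 0.98 (SE 0.068).

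LOXL1, the family member tied to elastic fibre upkeep in mice, in October stood at 458, 453 and 433 in secondary male and 487, 492 and 519 in secondary female libraries, against 432, 427 and 446 in primary male and 547, 470.1 and 583 in primary female libraries. June values of LOXL1 were 512, 548 and 590.1 in secondary male and 585, 563 and 582 in secondary female libraries, against 375, 362 and 378 in primary male and 424, 396 and 411 in primary female libraries. In October the follicle types overlapped in each sex, and in June all secondary libraries lay above all primary ones. The follicle type difference in LOXL1 was -0.02 (SE 0.042, limma adjusted p = 0.724) without a call in October and 0.53 (SE 0.042, limma adjusted p = 2.10e-10) in June. October minus June was -0.25 (SE 0.042) in secondary and 0.30 (SE 0.042) in primary cells, so the interaction of -0.55 (SE 0.059, limma adjusted p = 7.19e-08) was among the 3 most negative of the 45 genes.

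LOXL2, which acts on collagen IV of basement membranes among other substrates, had opposite follicle type differences in October and in June. LOXL2 in October stood at 1077, 1032 and 1091 in secondary male and 832, 943 and 917 in secondary female libraries, against 973, 979 and 994 in primary male and 677, 588 and 718 in primary female libraries. June values of LOXL2 were 482, 520.0 and 526 in secondary male and 630.2, 654 and 669 in secondary female libraries, against 594, 628 and 600.4 in primary male and 1007, 1013 and 1029 in primary female libraries. Secondary libraries were above primary ones of the same sex in October and below them in June, without overlap in any of the 4 pairs. In October males, though, the ratio of secondary to primary means was 1.09, without a call. The difference was 0.28 (SE 0.04, limma adjusted p = 6.96e-06) in October and -0.45 (SE 0.04, limma adjusted p = 1.54e-09) in June, with an interaction of 0.73 (SE 0.057). October against June gave 0.76 (SE 0.04) in secondary cells. In primary cells the effects of month were opposite in the sexes, 0.69 in males and -0.63 in females, and averaged 0.03 (SE 0.04, limma adjusted p = 0.484).

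LOXL3, a relative that also acts on collagens, in October stood at 96.6, 87.9 and 89.9 in secondary male and 105, 116 and 116 in secondary female libraries, against 98.7, 98.7 and 104 in primary male and 115, 101 and 122 in primary female libraries. June values of LOXL3 were 60.9, 61.8 and 66.7 in secondary male and 108, 108 and 108 in secondary female libraries, against 115, 110.5 and 105 in primary male and 112, 111 and 116 in primary female libraries. Secondary June male libraries lay below all others. The October difference was -0.07 (SE 0.041) and not called, and the June one was -0.43 (SE 0.041, limma adjusted p = 4.79e-09), with -0.80 in males and -0.06 without a call in females. LOXL4, another member of the family, in October stood at 0.57, 0.58 and 0.75 in secondary male and 3.88, 4.31 and 4.8 in secondary female libraries, against 2.14, 2.15 and 2.16 in primary male and 1.57, 1.5 and 2.31 in primary female libraries. June values of LOXL4 were 0.85, 1.1 and 1.07 in secondary male and 1.89, 1.76 and 1.95 in secondary female libraries, against 2.18, 1.73 and 2.3 in primary male and 1.33, 1.15 and 0.95 in primary female libraries. Secondary libraries were below primary ones in males and above them in females in both months, without overlap, so the averaged differences of -0.00 (SE 0.073) and -0.09 (SE 0.073) were not called. The averaged call for October against June in primary cells (0.21) was lost without primary June female replicate 3 (0.17), primary June male replicate 2 (0.17) or primary October female replicate 3 (0.14).

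**Figure D2:**
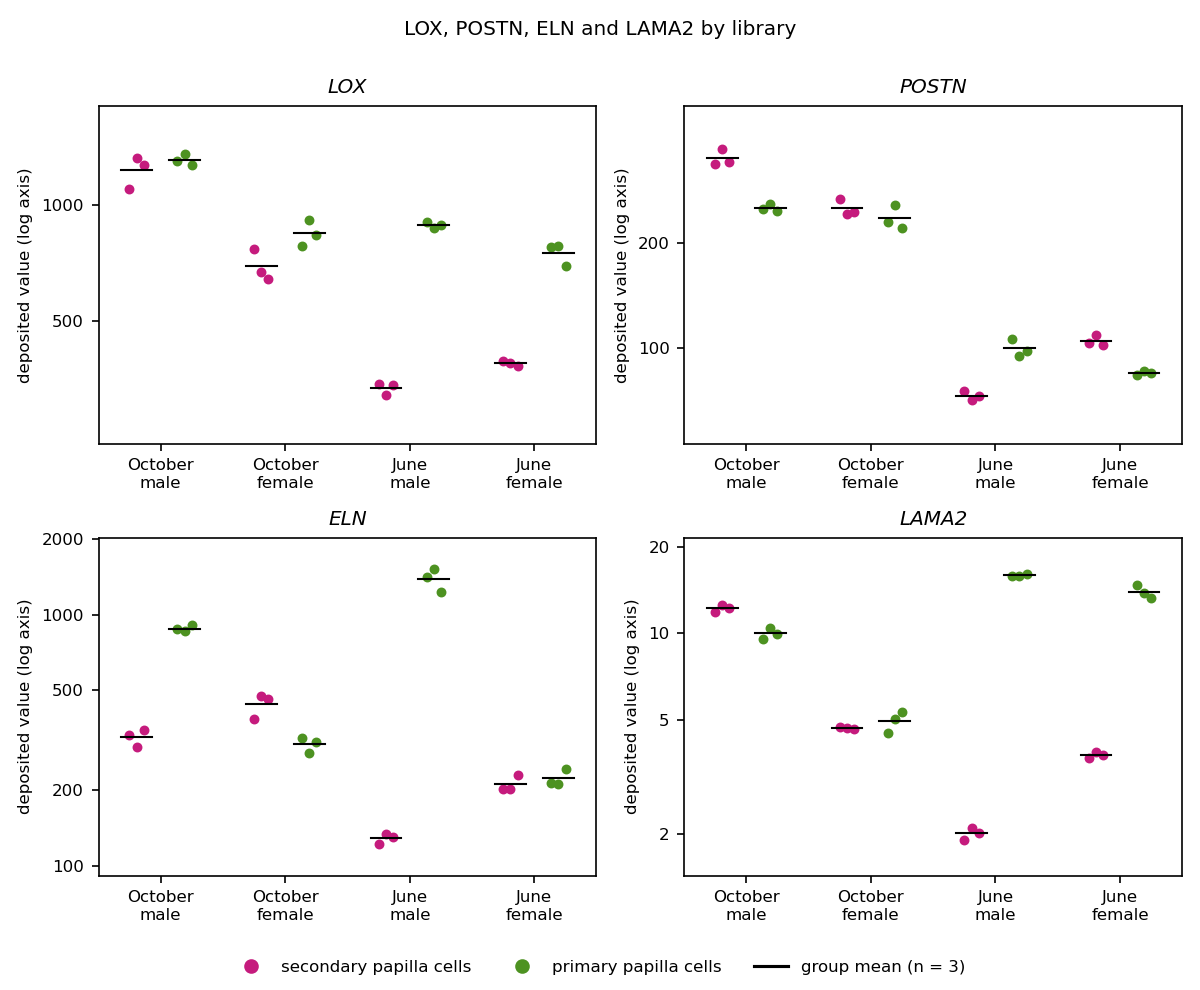
Deposited values (log axis) of LOX, POSTN, ELN and LAMA2 in each library, by month and sex, with secondary papilla cells left of primary ones and a line at each group mean (n = 3). LOX and POSTN lie higher in October in both follicle types, ELN is highest in primary male cells, and LAMA2 is lowest in secondary June cells.

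Of 12 elastic fibre and microfibril genes tested, averaged over the sexes, 2 were higher and 7 lower in secondary than in primary cells in October (31.5% of all genes called), and 1 was higher and 8 lower in June (61.9%). By sex, June gave 2 higher and 6 lower in males but 4 higher and 4 lower in females (59.6% and 49.3% of all genes called). October gave 3 higher and 5 lower in males and 2 higher and 5 lower in females (18.5% and 35.5% of all genes called). October against June gave 7 higher and 2 lower in secondary cells (62.9% of all genes), and 6 higher and 2 lower in primary cells (60.9%). Primary males split into 5 higher and 5 lower and primary females into 6 higher and 1 lower (55.5% and 48.2% of all genes called). In secondary cells FBLN1 (0.23 in males, -0.97 in females), FBLN2 (0.57, -0.51) and MFAP5 (1.90, -0.50) were called in opposite directions by sex. The averaged call of MFAP2 there was lost without any 1 of 5 libraries. ELN, elastin itself, in October stood at 333, 298 and 347 in secondary male and 385, 475 and 462 in secondary female libraries, against 872, 857 and 909 in primary male and 322, 281 and 310.1 in primary female libraries. June values of ELN were 122, 134 and 130.1 in secondary male and 203, 202 and 229.6 in secondary female libraries, against 1405, 1516 and 1226 in primary male and 214, 212 and 244 in primary female libraries. Primary male libraries of both months were above all others, while in June the female groups of both follicle types overlapped. In October the follicle type difference was -1.43 (SE 0.084) in males and 0.53 (SE 0.084) in females, and averaged -0.45 (SE 0.06, limma adjusted p = 2.41e-06). In June it was -3.41 (SE 0.084) in males and -0.08 (SE 0.084) without a call in females, and averaged -1.74 (SE 0.06, limma adjusted p = 4.68e-17). October was above June in secondary cells of both sexes, by 1.19 (SE 0.06) on average, and the interaction with follicle type was 1.29 (SE 0.084, limma adjusted p = 1.69e-11). Primary June male libraries, where ELN was highest, also had the highest sums of smooth muscle and sheath markers. In October these sums were 12407 to 12758 in primary male libraries, with ELN at 857 to 909. In primary October female libraries they were 12878 to 15012, with ELN at 281 to 322. A link between ELN and these markers was not tested.

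MFAP4, a glycoprotein that binds fibrillin and elastin, was among the 3 genes that gained most in October in primary cells. MFAP4 in October stood at 198, 188 and 194 in secondary male and 182, 199 and 205 in secondary female libraries, against 395, 374 and 387 in primary male and 276, 228 and 268 in primary female libraries. June values of MFAP4 were 91.5, 97.2 and 103 in secondary male and 135, 133 and 136 in secondary female libraries, against 242, 250.5 and 236 in primary male and 147, 138 and 149 in primary female libraries. Every October group of a follicle type and sex was above its June group without overlap. The month difference was 0.76 (SE 0.042, limma adjusted p = 3.79e-13) in secondary and 0.74 (SE 0.042, limma adjusted p = 7.40e-13) in primary cells, and the interaction was 0.02 (SE 0.06) and not called. Secondary cells were lower than primary cells in both months, with differences of -0.69 (SE 0.042) in October and -0.71 (SE 0.042) in June, though in June females the difference of -0.10 was not called.

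Fibulins, which tie elastin to microfibrils and to cells, differed from one another. FBLN1 in October stood at 85.4, 82.4 and 83.7 in secondary male and 26.3, 30.5 and 27.8 in secondary female libraries, against 76.4, 81.2 and 82.2 in primary male and 105, 101 and 116 in primary female libraries. June values of FBLN1 were 69.6, 70.8 and 74.4 in secondary male and 56.6, 54.5 and 56.6 in secondary female libraries, against 84.9, 93.0 and 93.0 in primary male and 83.3, 86.5 and 84.7 in primary female libraries. Secondary October female libraries were the lowest of all, at 26.3 to 30.5, and all others lay at 54.5 or above. The October difference was -0.91 (SE 0.039, limma adjusted p = 1.71e-14), with 0.07 (SE 0.054) without a call in males and -1.89 (SE 0.054) in females, and the June one was -0.46 (SE 0.039). The group with low FBLN1 was the one with the highest sums of keratinocyte markers, and a link between them was not tested. EMILIN1, which lies at the interface of elastin and microfibrils, was higher in secondary cells. EMILIN1 in October stood at 97.8, 90.0 and 98.6 in secondary male and 69.4, 86.0 and 84.9 in secondary female libraries, against 63.5, 66.4 and 68.3 in primary male and 78.4, 66.1 and 83.9 in primary female libraries. June values of EMILIN1 were 101, 106 and 112 in secondary male and 81.5, 81.9 and 89.5 in secondary female libraries, against 51.5, 55.8 and 52.8 in primary male and 55.1, 53.4 and 60.0 in primary female libraries. Secondary libraries were above primary ones in October males and in June in both sexes, and the October female groups overlapped. The difference was 0.30 (SE 0.056, limma adjusted p = 2.34e-04) in October and 0.78 (SE 0.056, limma adjusted p = 3.95e-11) in June, with an interaction of -0.48 (SE 0.08, limma adjusted p = 3.04e-05).

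The other elastic fibre genes were FBN1, FBN2, FBLN2, FBLN5, EFEMP1, EFEMP2, MFAP2 and MFAP5. EFEMP1, fibulin-3, averaged 81.2 ± 2.82 in secondary June male libraries against 458 ± 3.28 in primary June male libraries (SD, n = 3 each), a difference of -2.48 (SE 0.042). MFAP5 averaged 1416 ± 36.3 in secondary October male against 379.7 ± 17.0 in secondary June male libraries, and its month difference in secondary cells was 1.90 (SE 0.041) in males and -0.50 (SE 0.041) in females. FBN1, the main fibrillin of adult microfibrils, stayed between 460.8 and 736.7 over the 24 libraries, and FBLN5, which is needed for elastic fibres in mice, between 245.9 and 315.1.

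Of 10 basement membrane genes tested, 5 were higher and 1 lower in secondary cells in October (median 0.12), and in June 0 were higher and 7 lower (median -0.36). Between months, 7 were higher and 2 lower in secondary cells in October (median 0.23), and 0 higher and 9 lower in primary cells (median -0.28). Where limma called 0 genes higher here, 0 were also higher at an unadjusted p under 0.05. All genes called were 31.5%, 61.9%, 62.9% and 60.9% in these 4 comparisons. The averages hide differences between the sexes. In primary males 4 were lower in October, 2 were higher (LAMC1 at 0.16, NID2 at 0.71) and 4 were not called. In primary females all 10 were lower (48.2% of all genes called, against 55.5% in primary males). In secondary cells LAMB1, NID2 and AGRN were higher in October in males (0.56, 0.80, 0.48) and lower in females (-0.18, -0.24, -0.22). There HSPG2 was higher in males (0.88) and not called in females (0.02), and NID1 was lower in males (-0.69) and higher in females (0.15). Between follicle types in June, LAMC1 (0.25) and NID1 (0.35) were higher in secondary males and lower in secondary females. In October no basement membrane gene was called higher in secondary cells of both sexes. NID1 and NPNT were then called in opposite directions. Their ratios of secondary to primary means were 1.53 and 1.88 in females, and 0.88 and 0.71 in males. The interaction was called positive for 9 of the 10 (23.3% of all genes called positive). It was not called for LAMA5 (-0.05 (SE 0.11)). Each interaction is an average over the sexes and was not tested within a sex. From June to October the ratio of secondary to primary means fell in males for NID1 (1.27 to 0.88) and LAMC1 (1.19 to 1.16). In females it rose for NID1 (0.83 to 1.53) and LAMC1 (0.83 to 1.035). LAMA2, the alpha-2 chain of laminin-211, had the largest interaction of the 45 genes. LAMA2 in October stood at 11.8, 12.5 and 12.3 in secondary male and 4.7, 4.69 and 4.64 in secondary female libraries, against 9.58, 10.5 and 9.95 in primary male and 4.51, 5.01 and 5.33 in primary female libraries. June values of LAMA2 were 1.91, 2.09 and 2.02 in secondary male and 3.68, 3.86 and 3.76 in secondary female libraries, against 15.9, 15.8 and 16.1 in primary male and 14.7, 13.8 and 13.2 in primary female libraries. In October the secondary male group was slightly above the primary male one and the female groups overlapped, while in June all secondary libraries were at 3.86 or less and all primary ones at 13.2 or more. The follicle type difference was 0.10 (SE 0.041, limma adjusted p = 0.0651) without a call in October and -2.07 (SE 0.041, limma adjusted p = 4.31e-21) in June, with an interaction of 2.17 (SE 0.057, limma adjusted p = 4.28e-18). October minus June was 1.19 (SE 0.041) in secondary and -0.98 (SE 0.041) in primary cells.

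LAMB1 and LAMC1 are the beta-1 and gamma-1 chains that many laminins share. LAMB1 in October stood at 245, 248 and 251 in secondary male and 163, 167 and 163 in secondary female libraries, against 257, 255 and 251 in primary male and 232, 239 and 244 in primary female libraries. June values of LAMB1 were 165, 169 and 172 in secondary male and 184, 189 and 188 in secondary female libraries, against 262, 263 and 275 in primary male and 337, 345 and 337 in primary female libraries. Secondary libraries were below primary ones of the same sex in all 4 pairs, with little room between the October male groups. The difference was -0.28 (SE 0.023, limma adjusted p = 1.22e-09) in October, where males gave -0.04 without a call, and -0.76 (SE 0.023, limma adjusted p = 6.08e-18) in June. LAMC1 in October stood at 211, 206 and 214 in secondary male and 193, 189 and 184 in secondary female libraries, against 181, 182 and 181 in primary male and 167, 192 and 187 in primary female libraries. June values of LAMC1 were 191, 191 and 196 in secondary male and 173, 171 and 176 in secondary female libraries, against 165, 159 and 163 in primary male and 213, 214 and 203 in primary female libraries. The whole range over 24 libraries, 159.4 to 214.3, was narrow. The follicle type difference was 0.13 (SE 0.03, limma adjusted p = 0.00131) in October. In June it was 0.25 (SE 0.042) in males and -0.27 (SE 0.042) in females, and the mean of -0.01 was not called.

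LAMA4, the alpha-4 chain found in laminins of vessels and mesenchyme, in October stood at 232, 227 and 231 in secondary male and 197, 193 and 189.8 in secondary female libraries, against 196, 195 and 200.2 in primary male and 193, 217 and 206 in primary female libraries. June values of LAMA4 were 188, 183 and 186 in secondary male and 162, 165 and 166 in secondary female libraries, against 192, 189.9 and 194 in primary male and 238, 243 and 239 in primary female libraries. Secondary June female libraries were the lowest, at 165.9 or less, and primary June female libraries included the highest value, 243.0. The June difference was -0.29 (SE 0.026, limma adjusted p = 9.66e-10), with -0.05 (SE 0.036) without a call in males and -0.54 (SE 0.036) in females. The October difference was 0.07 (SE 0.026, limma adjusted p = 0.0434). Leaving out 1 library ended that call in 8 of 12 cases, with values from 0.05 to 0.07: secondary October female replicates 1 and 2, secondary October male replicates 1 to 3, primary October female replicate 1, and primary October male replicates 1 and 2.

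LAMA5, a chain of basement membranes under epithelia that is needed for hair morphogenesis in mice, was lower in October in every pair of follicle type and sex. It averaged 16.5 ± 1.51 and 14.4 ± 1.90 in secondary October male and female libraries, against 28.4 ± 2.14 and 23.0 ± 1.22 in secondary June male and female libraries (SD, n = 3 each). In primary cells it averaged 19.0 ± 0.979 and 16.5 ± 3.70 in October male and female libraries, against 29.2 ± 0.155 and 26.9 ± 1.47 in June male and female ones. The month difference was -0.70 (SE 0.075, limma adjusted p = 3.04e-08) in secondary and -0.65 (SE 0.075, limma adjusted p = 1.20e-07) in primary cells, and the follicle type difference did not pass the test in either month (-0.18 in October, -0.13 in June). NID1, NID2, HSPG2 (perlecan), AGRN and NPNT (nephronectin) were lower in October in primary cells on average over the sexes, with differences from -0.56 to -0.10. In primary males NID1 (-0.16) and AGRN (-0.35) were lower, HSPG2 (0.01) and NPNT (0.12) were not called, and NID2 was higher, at 0.71 (SE 0.05, limma adjusted p = 4.95e-11). In primary females NID2 was lower, at -0.92 (SE 0.05, limma adjusted p = 9.43e-13). The averaged NID2 call, at -0.10 (SE 0.036), was lost without primary June male replicate 3 (-0.08). All genes called in this comparison were 55.5% in males and 48.2% in females. Male less female, the difference in this effect was called positive for 9 of the 10 (36.8% of all genes called in either direction), all but LAMA5.

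Among the 8 adhesive glycoproteins, 6 were higher and 1 lower in secondary than in primary cells in October (31.5% of all genes called), and 4 were higher and 3 lower in June (61.9%). By month, 6 were higher and 1 lower in October in secondary cells (62.9% of all genes), and 4 higher and 2 lower in primary cells (60.9%). DPT, dermatopontin, a small dermal protein that binds decorin and collagen, had the largest follicle type difference in June. DPT in October stood at 102, 83.4 and 91.8 in secondary male and 439, 414 and 436 in secondary female libraries, against 34.2, 36.3 and 32.6 in primary male and 60.3, 50.5 and 60.2 in primary female libraries. June values of DPT were 153, 151 and 154 in secondary male and 232, 229 and 227 in secondary female libraries, against 33.9, 31.3 and 27.1 in primary male and 54.2, 55.4 and 62.1 in primary female libraries. All 12 secondary libraries, at 83.4 or more, were above all 12 primary ones, at 62.1 or less. The difference was 2.15 (SE 0.055, limma adjusted p = 3.95e-18) in October and 2.13 (SE 0.055, limma adjusted p = 3.63e-19) in June, and the interaction was 0.01 (SE 0.078) and not called. In secondary cells DPT moved in opposite directions with the month, October minus June being -0.72 (SE 0.078) in males and 0.90 (SE 0.078) in females. Secondary October female libraries, where DPT was highest, had the highest sums of keratinocyte markers. In secondary June libraries these sums were 8.39 to 11.8 with DPT at 151.1 or more. A link between DPT and these markers was not tested.

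TNN, tenascin-W, an adhesive hexamer of stem cell niches and bone, in October stood at 4.85, 3.5 and 3.91 in secondary male and 22.6, 23.1 and 24.0 in secondary female libraries, against 0.18, 0.21 and 0.27 in primary male and 2.93, 2.85 and 2.63 in primary female libraries. June values of TNN were 1.73, 2.46 and 2.52 in secondary male and 14.4, 14.6 and 14.6 in secondary female libraries, against 0.22, 0.23 and 0.15 in primary male and 3.59, 3.02 and 3.33 in primary female libraries. Within each sex and month the secondary libraries were above the primary ones without overlap, and within each follicle type females were above males. The difference was 2.36 (SE 0.066, limma adjusted p = 1.46e-17) in October and 1.64 (SE 0.066, limma adjusted p = 9.05e-16) in June. Since the primary male values, 0.15 to 0.27, are below the added constant of 1, the log2 differences understate the change in males. TNC, its larger relative tenascin-C, ranged from 589.2 to 2054 over the 24 libraries and was lowest in primary June male ones.

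**Figure D3:**
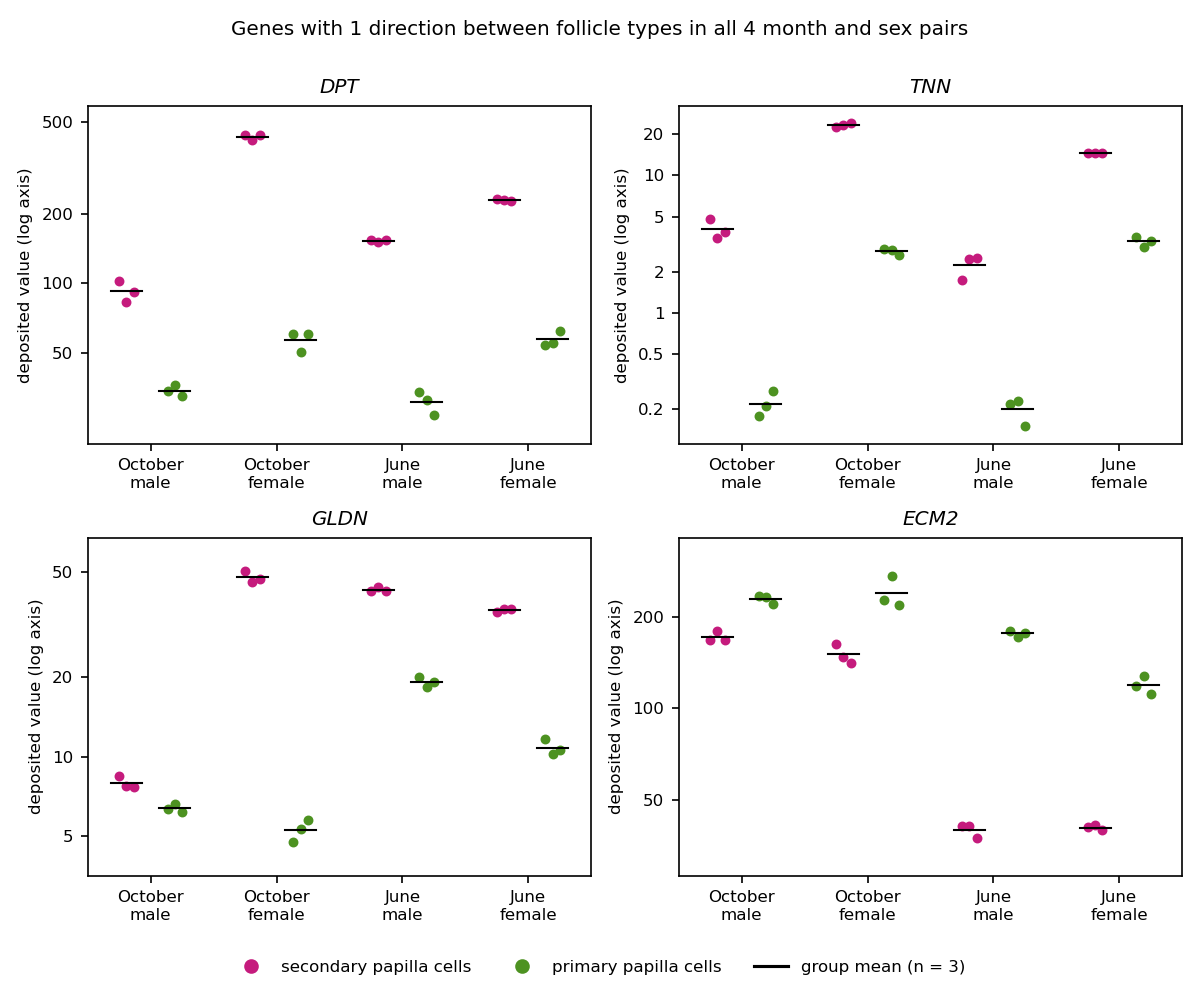
Deposited values (log axis) of DPT, TNN, GLDN and ECM2 in each library, by month and sex, with secondary papilla cells left of primary ones and a line at each group mean (n = 3). DPT, TNN and GLDN are higher and ECM2 is lower in secondary cells in all 4 pairs of month and sex.

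ECM2, a matrix protein with leucine-rich repeats, was lower in secondary cells and had the largest October minus June difference in them. ECM2 in October stood at 168, 180.1 and 167 in secondary male and 164, 148 and 141 in secondary female libraries, against 235, 233 and 221 in primary male and 228, 274 and 219 in primary female libraries. June values of ECM2 were 41.0, 40.9 and 37.5 in secondary male and 40.5, 41.2 and 39.6 in secondary female libraries, against 180.2, 172 and 177 in primary male and 118, 128 and 111 in primary female libraries. All 6 secondary June libraries, at 41.2 or less, lay far below the other 18, at 111.2 or more. October was above June by 1.98 (SE 0.049, limma adjusted p = 2.01e-19) in secondary and by 0.69 (SE 0.049, limma adjusted p = 4.11e-11) in primary cells. Secondary minus primary was -0.54 (SE 0.049, limma adjusted p = 7.22e-09) in October and -1.83 (SE 0.049, limma adjusted p = 7.09e-19) in June, and the interaction was 1.29 (SE 0.069).

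POSTN, periostin, which binds tenascin-C and aids collagen cross-linking, followed the month. POSTN in October stood at 338, 371 and 342 in secondary male and 267, 243 and 246 in secondary female libraries, against 251, 258 and 247 in primary male and 229, 258 and 221 in primary female libraries. June values of POSTN were 75.2, 71.0 and 72.8 in secondary male and 103, 109 and 102 in secondary female libraries, against 106, 95.1 and 98.2 in primary male and 83.6, 86.0 and 84.8 in primary female libraries. All 12 October libraries, at 221.3 or more, were above all 12 June ones, at 109.2 or less. The month difference was 1.75 (SE 0.039, limma adjusted p = 2.48e-20) in secondary and 1.40 (SE 0.039, limma adjusted p = 1.86e-18) in primary cells. Follicle types differed by 0.29 (SE 0.039) in October, where the ratio of secondary to primary means was 1.39 in males and 1.07 without a call in females. In June effects of -0.44 in males and 0.30 in females averaged -0.07 without a call. TGFBI, a secreted integrin ligand, was also higher in October in all 4 pairs of follicle type and sex, by 0.68 (SE 0.029) in secondary and 0.50 (SE 0.029) in primary cells.

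FN1, fibronectin, the widespread cell-binding glycoprotein, in October stood at 9483, 9043 and 8969.6 in secondary male and 6187, 6365 and 6181 in secondary female libraries, against 7893, 7914 and 8116 in primary male and 3408, 3548 and 4096 in primary female libraries. June values of FN1 were 4943, 5062 and 5327 in secondary male and 6347, 6528 and 6595 in secondary female libraries, against 12958, 12085 and 12297 in primary male and 5209, 5343 and 5218 in primary female libraries. Primary October female libraries were the lowest, at 4096 or less, and primary June male libraries the highest, at 12085 or more. Secondary minus primary was 0.48 (SE 0.034, limma adjusted p = 1.36e-10) in October and -0.49 (SE 0.034, limma adjusted p = 2.36e-11) in June, with an interaction of 0.97 (SE 0.049). In June the sexes went opposite ways, -1.28 (SE 0.049) in males and 0.30 (SE 0.049) in females. ECM1, which binds perlecan and fibulin-1, had the most negative interaction. ECM1 in October stood at 7.16, 6.4 and 7.05 in secondary male and 7.56, 8.61 and 8.58 in secondary female libraries, against 6.05, 7.56 and 7.36 in primary male and 8.85, 8.73 and 9.28 in primary female libraries. June values of ECM1 were 16.0, 16.8 and 18.1 in secondary male and 11.5, 10.6 and 11.7 in secondary female libraries, against 10.2, 10.2 and 8.74 in primary male and 9.18, 9.21 and 7.01 in primary female libraries. In October the male groups of the follicle types overlapped, and in June secondary male libraries were the highest, at 16.0 or more. Secondary minus primary was -0.06 (SE 0.064) without a call in October and 0.56 (SE 0.064, limma adjusted p = 7.49e-08) in June, and the interaction was -0.63 (SE 0.09, limma adjusted p = 5.09e-06). October minus June was -0.80 (SE 0.064) in secondary cells.

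**Figure D4:**
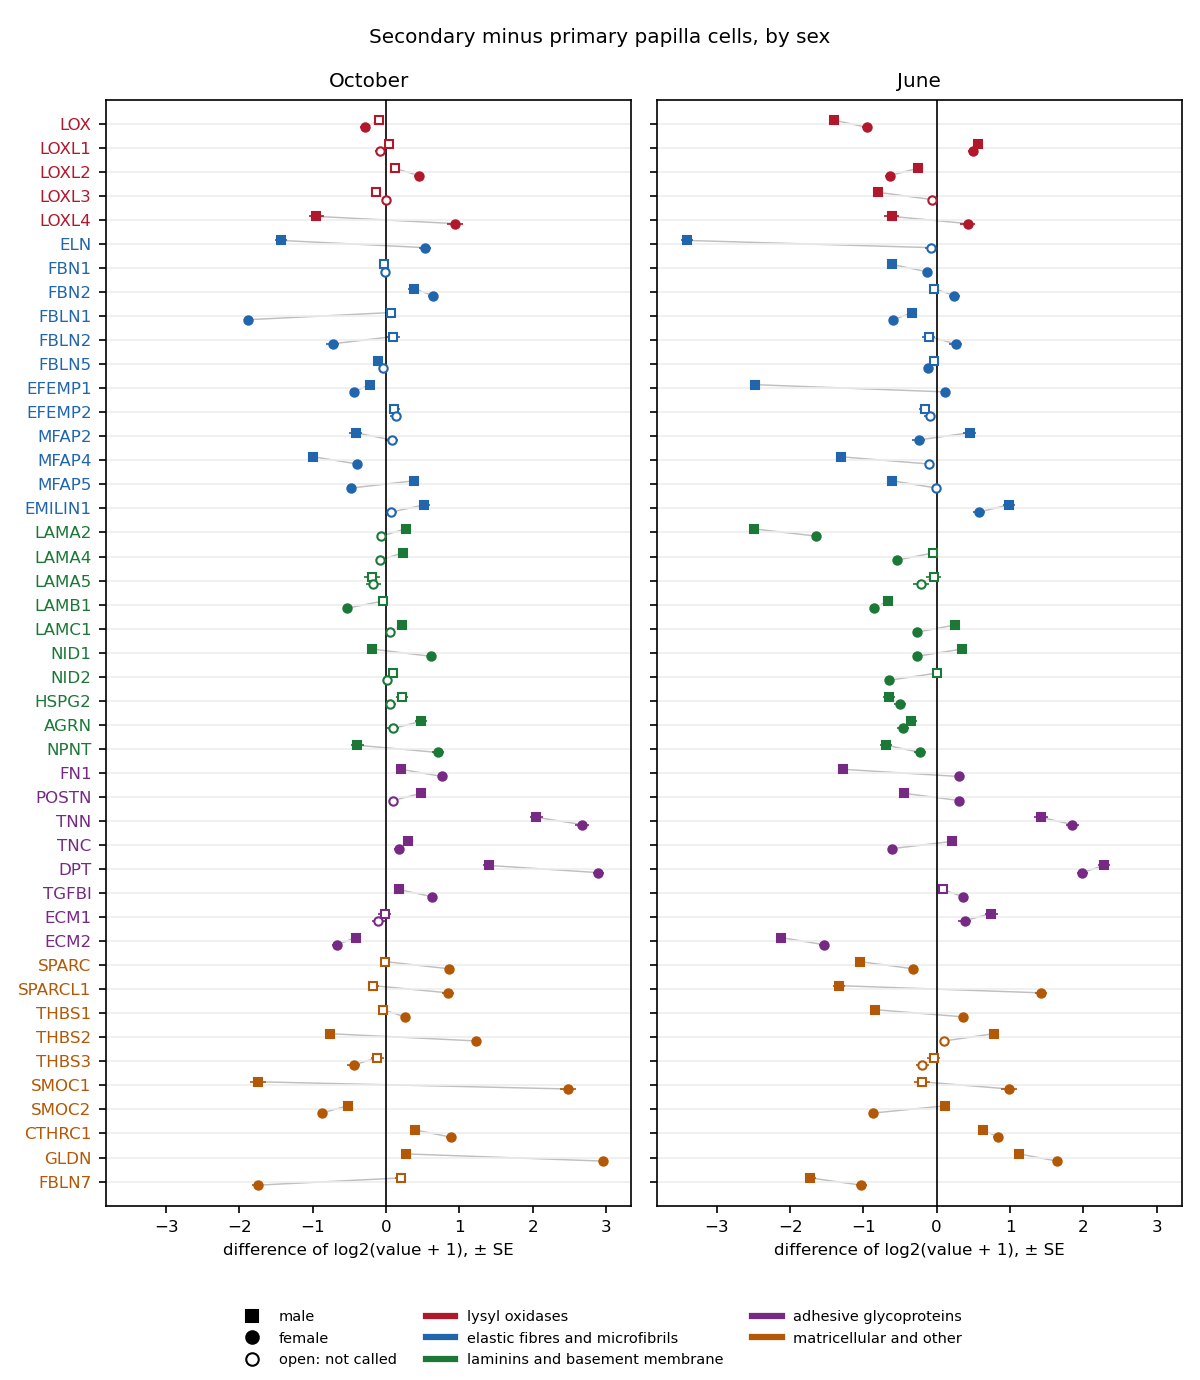
Difference of mean log2(value + 1), secondary minus primary cells, for the 45 genes in October (left panel) and June (right panel); squares are males, circles females, bars are ± SE, open symbols were not called, and grey lines join the sexes. DPT, TNN, CTHRC1 and GLDN are right of 0 and ECM2 is left of 0 in all 4 pairs, and ELN in June differs by -3.41 in males and -0.08 in females.

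Matricellular and other glycoproteins (10 genes) were higher in secondary cells for 7 and lower for 3 in October (31.5% of all genes called), and higher for 4 and lower for 4 in June (61.9%). In October only CTHRC1 and GLDN of this class were called higher in both sexes. THBS2 and SMOC1 were then lower in males (ratios of secondary to primary means 0.59 and 0.22) and higher in females (2.34 and 23.05). October against June gave 6 higher and 3 lower in secondary cells (62.9% of all genes), and 4 higher and 5 lower in primary cells (60.9%). GLDN, gliomedin, known for clustering sodium channels at nodes of peripheral nerve, in October stood at 8.41, 7.76 and 7.69 in secondary male and 50.5, 45.7 and 47.1 in secondary female libraries, against 6.33, 6.63 and 6.19 in primary male and 4.73, 5.34 and 5.73 in primary female libraries. June values of GLDN were 42.3, 43.6 and 42.3 in secondary male and 35.1, 36.2 and 36.0 in secondary female libraries, against 19.9, 18.3 and 19.1 in primary male and 11.6, 10.2 and 10.6 in primary female libraries. Secondary libraries were above primary ones in all 4 pairs, and in October males the ranges were 7.69 to 8.41 against 6.19 to 6.63. The difference was 1.62 (SE 0.043, limma adjusted p = 5.34e-18) in October, with 0.28 (SE 0.06) in males and 2.96 (SE 0.06) in females, and 1.38 (SE 0.043, limma adjusted p = 7.18e-18) in June. October minus June was -2.29 (SE 0.06) in secondary males, 0.41 (SE 0.06) in secondary females and -1.18 (SE 0.043) in primary cells of both sexes. CTHRC1, a secreted collagen triple helix repeat protein, was the fourth gene higher in secondary cells in all 4 pairs, by 0.63 (SE 0.048) in October and 0.73 (SE 0.048) in June.

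SPARCL1, hevin, a relative of SPARC, in October stood at 5.11, 4.87 and 5.17 in secondary male and 4.25, 5.29 and 4.5 in secondary female libraries, against 5.88, 6.18 and 5.46 in primary male and 2.05, 2.44 and 1.99 in primary female libraries. June values of SPARCL1 were 20.6, 22.6 and 22.8 in secondary male and 8.28, 7.9 and 8.07 in secondary female libraries, against 57.1, 57.3 and 56.4 in primary male and 2.71, 2.48 and 2.02 in primary female libraries. The June male groups were above all others, the primary one at 56.4 to 57.3. October minus June was -1.30 (SE 0.054, limma adjusted p = 2.41e-15) in secondary cells and -1.59 (SE 0.054, limma adjusted p = 7.96e-17) in primary cells, where it was -3.08 (SE 0.077) in males and -0.10 (SE 0.077) without a call in females. Follicle types in June differed by -1.33 in males and 1.42 in females. For SPARC itself, secondary minus primary was 0.42 (SE 0.034) in October and -0.68 (SE 0.034) in June.

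SMOC1 and SMOC2 are calcium-binding relatives of SPARC, and SMOC1 is known to counter BMP signals in frogs. SMOC1 in October stood at 2.38, 1.66 and 1.89 in secondary male and 5.34, 6.14 and 6.73 in secondary female libraries, against 9.27, 8.97 and 8.67 in primary male and 0.25, 0.41 and 0.13 in primary female libraries. June values of SMOC1 were 0.15, 0.33 and 0.24 in secondary male and 2.26, 2.29 and 1.9 in secondary female libraries, against 0.42, 0.27 and 0.61 in primary male and 0.75, 0.44 and 0.58 in primary female libraries. Secondary cells were below primary cells in October males and above them in October females, and only secondary October female and primary October male libraries exceeded 5. October was above June by 1.21 (SE 0.078, limma adjusted p = 5.61e-12) in secondary cells and by 1.24 (SE 0.078, limma adjusted p = 5.26e-12) in primary cells, where it was 2.80 (SE 0.11) in males and -0.33 (SE 0.11) in females. The call in primary females was lost without primary June female replicate 1 or primary October female replicate 3 (-0.26 each). SMOC2 in October stood at 142, 139 and 142 in secondary male and 213, 218 and 226 in secondary female libraries, against 209, 199 and 201 in primary male and 415, 379.8 and 413 in primary female libraries. June values of SMOC2 were 177, 174 and 188 in secondary male and 143, 137 and 143 in secondary female libraries, against 165, 173 and 159 in primary male and 255, 252 and 266 in primary female libraries. Primary October female libraries were the highest, at 379.8 or more. Secondary minus primary was -0.70 (SE 0.031, limma adjusted p = 3.07e-14) in October and -0.37 (SE 0.031) in June, although June males gave 0.12 (SE 0.044). That male call was lost without secondary June male replicate 3 (0.09), primary June male replicate 1 (0.12) or primary June male replicate 3 (0.09).

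FBLN7, fibulin-7, an adhesion protein first described in teeth, was lower in secondary cells. FBLN7 in October stood at 46.3, 45.0 and 44.5 in secondary male and 16.5, 20.1 and 19.1 in secondary female libraries, against 40.2, 36.5 and 41.3 in primary male and 67.9, 57.6 and 68.9 in primary female libraries. June values of FBLN7 were 12.2, 12.4 and 13.4 in secondary male and 10.2, 9.31 and 9.27 in secondary female libraries, against 41.3, 43.3 and 48.2 in primary male and 21.0, 20.0 and 20.7 in primary female libraries. In October secondary male libraries were above primary male ones and secondary female libraries below primary female ones, and in June all secondary libraries, at 13.4 or less, were below all primary ones, at 20.0 or more. The difference was -0.77 (SE 0.052, limma adjusted p = 6.09e-11) in October, with 0.20 (SE 0.074) without a call in males and -1.75 (SE 0.074) in females, and -1.38 (SE 0.052, limma adjusted p = 3.58e-16) in June. Of the thrombospondins, which bind calcium, cells and matrix, THBS3 was higher in October in all 4 pairs of follicle type and sex, by 0.42 (SE 0.061) in secondary and 0.58 (SE 0.061) in primary cells. For THBS2 in October, secondary minus primary was -0.76 (SE 0.05) in males and 1.23 (SE 0.05) in females. THBS1 ranged from 6852 to 13088 over the 24 libraries and was highest in primary June male ones.

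**Figure D5:**
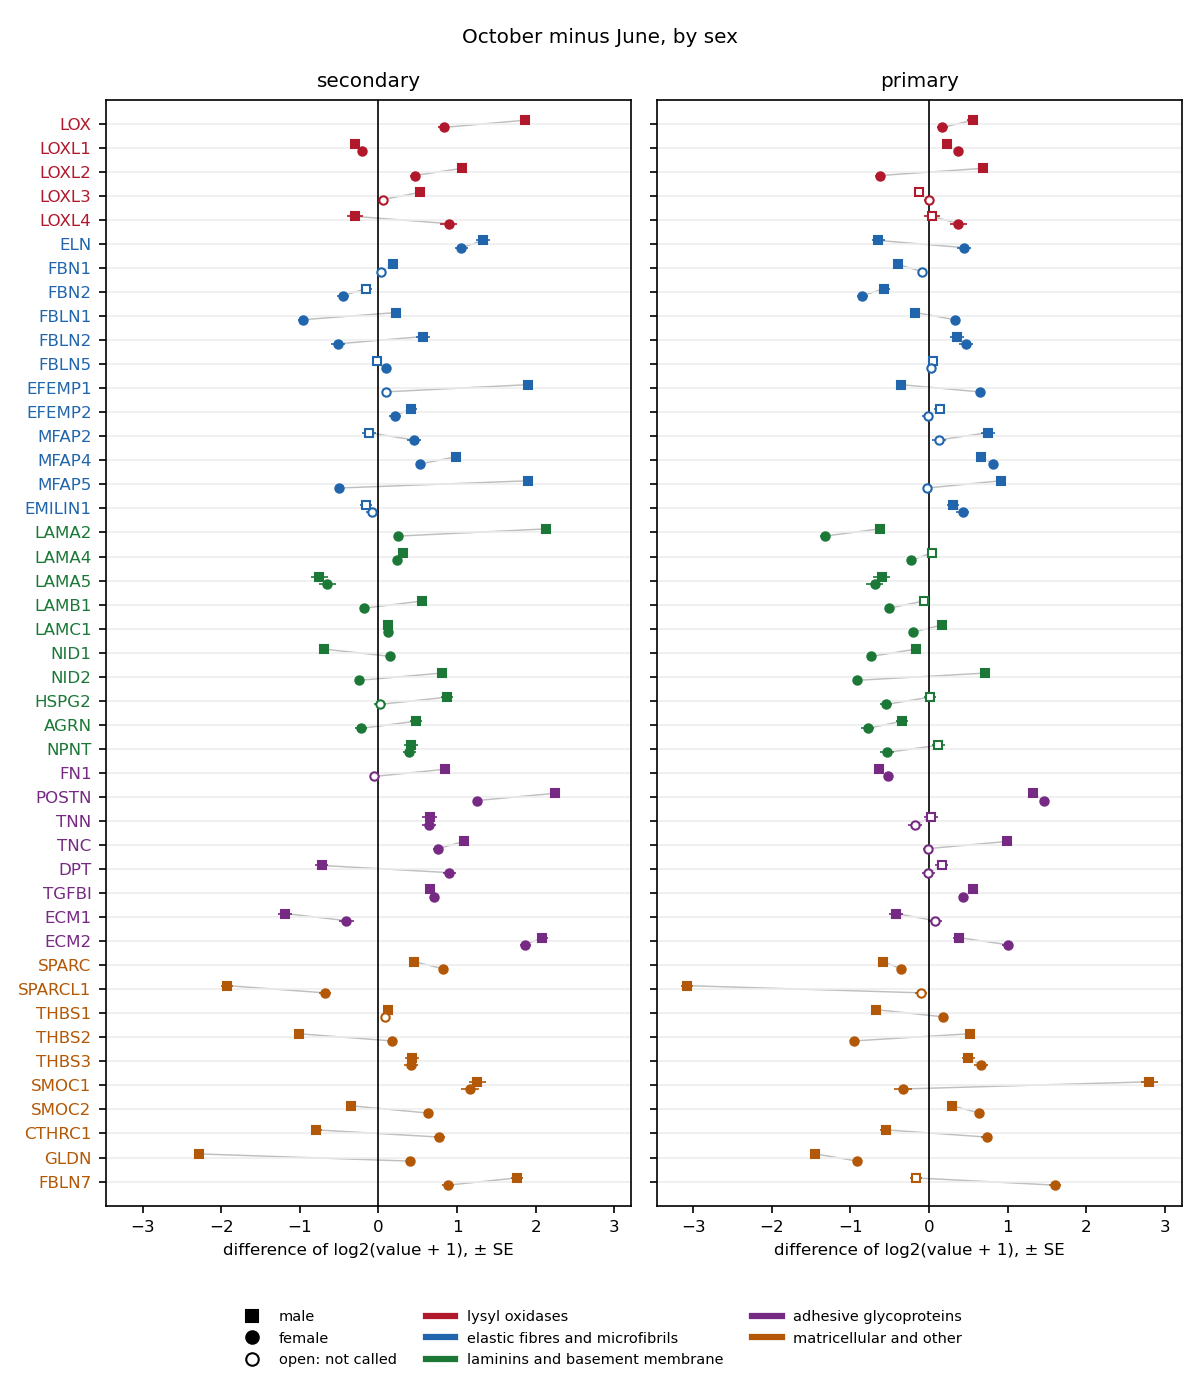
Difference of mean log2(value + 1), October minus June, for the 45 genes in secondary cells (left panel) and primary cells (right panel); squares are males, circles females, bars are ± SE, open symbols were not called, and grey lines join the sexes. LOX, MFAP4, POSTN, TGFBI, ECM2 and THBS3 are right of 0 and LAMA5 is left of 0 in all 4 pairs.

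Few of the 45 genes kept 1 direction across all pairs of groups. No share over all genes was computed for the counts of this paragraph, so they cannot be called particular to these genes. Secondary against primary cells, 4 genes were called higher (TNN, DPT, CTHRC1, GLDN) and 1 lower (ECM2) in all 4 combinations of month and sex, 22 of the 45 were called in both directions among the 4, and 2 were never called. October against June, 6 were higher (LOX, MFAP4, POSTN, TGFBI, ECM2, THBS3) and 1 lower (LAMA5) in all 4 combinations of follicle type and sex, and 27 were called in both directions. Averaged over the sexes, 8 genes were called higher in secondary cells in October and lower in June: LOXL2, LAMA4, AGRN, NPNT, FN1, TNC, SPARC and THBS1. By limma 0 were called the other way, and 0 at an unadjusted p under 0.05. Within a sex, both calls were made for LOXL2, NPNT, TNC and SPARC in females and for AGRN and FN1 in males. For LAMA4 and THBS1 they were made in neither sex. In females the October call of TNC was lost without any 1 of 4 libraries (limma adjusted p from 0.0903 to 0.238). The June call of NPNT in females was lost without any 1 of 3 (limma adjusted p from 0.0952 to 0.153). THBS1 was higher in secondary females in both months (0.26 in October, 0.37 in June), while in males it was lower in June (-0.84) and not called in October (-0.05). LAMA4 was called in males in October (0.22) and in females in June (-0.54). NPNT was lower in secondary males in both months, and FN1 in females and TNC in males were higher in both. Of the 8, NPNT in October (0.16 (SE 0.06)) lost its call without any 1 of 10 libraries, with values from 0.13 to 0.17. The exceptions were primary October female replicate 2 and secondary October male replicate 1. After rescaling to a common total, the October calls of LAMA4 (0.03), NPNT (0.12) and THBS1 (0.06) were lost.

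Within 1 sex, secondary against primary cells in October had 27 of the 45 genes called in males (15 higher, 12 lower) and 29 in females (18 higher, 11 lower), against 18.5% and 35.5% of all genes. In June the counts were 35 in males (13 higher, 22 lower) and 37 in females (17 higher, 20 lower), against 59.6% and 49.3% of all genes. October against June in secondary cells had 41 called in males (30 higher, 11 lower) and 38 in females (27 higher, 11 lower), against 56.5% and 51.3%. In primary cells these were 34 in males (18 higher, 16 lower) and 34 in females (17 higher, 17 lower), against 55.5% and 48.2%. After rescaling to a common total, October males split into 12 higher and 16 lower between follicle types.

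The sexes were compared by the difference of their effects, male less female. For follicle type it was called for 31 genes in October (26.7% of all genes) and 37 in June (41.2%). For month it was called for 30 genes in secondary cells (37.7% of all genes) and for 30 in primary cells (36.8%). In October the follicle type difference was called in the same direction in both sexes for 12 genes and in opposite directions for 7, against 6.75% and 3.82% of all genes. In June these counts were 19 and 11, against 27.7% and 6.87% of all genes. For October against June they were 22 and 13 in secondary cells (28.5% and 6.24% of all genes) and 18 and 10 in primary cells (26.3% and 6.08%). SRY was listed at 0 in all 24 libraries, so the sex labels were not checked through that gene.

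Related genes outside the 45 were counted for comparison. Among 29 other matrix glycoproteins tested, 6 were higher and 12 lower in secondary cells in October (62.1% called, against 31.5% of all genes), and 3 higher and 17 lower in June (69.0% against 61.9%). LTBP1, which holds latent TGF-beta in the matrix, was lower in June with a difference of -1.32 (SE 0.024), and IGFBP7 with -1.55 (SE 0.031). By month, October gave 13 higher and 9 lower in secondary cells and 6 higher and 16 lower in primary cells (75.9% called in each, against 62.9% and 60.9% of all genes). LTBP2 was lower in October in both, at -1.46 (SE 0.044) and -1.42 (SE 0.044), and ABI3BP was higher in secondary cells by 2.02 (SE 0.061). Among 12 helpers of collagen folding and processing, 9 were higher and 0 lower by limma in secondary cells in October (1 lower at an unadjusted p under 0.05; 31.5% of all genes called), and 4 were higher and 5 lower in June (61.9% of all genes). P4HA3, a prolyl hydroxylase subunit, was higher in secondary cells by 1.02 (SE 0.043) in October and 0.76 (SE 0.043) in June. SERPINH1, the collagen chaperone HSP47, was higher by 0.39 (SE 0.046) in October, and P4HA3 was above June in October by 1.34 in secondary and 1.08 in primary cells (SE 0.043 each).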

How the data were processed

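RNA-seq of 24 papilla cell libraries, 3 in each of 8 groups, was used. RNAiso Plus for the RNA and an NEBNext Ultra kit for the paired-end libraries are named in the labels' protocols, and kallisto 0.46.1 and sleuth 0.30.0 in the submitters' processing notes, without their order. Genome build, transcript set and depth were not given in these sources. The values the authors deposited are a normalised expression signal, not counts, so counting error could not be given.

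Values were set to log2(value + 1), which understates changes of low genes. Genes at 1 or more in at least 3 libraries entered a limma 3.58.1 model in R 4.3.3 (with statmod 1.5.0): a mean per group, variance trend, robust estimation, Benjamini-Hochberg adjustment over 13049 genes in each of 17 comparisons, calls below an adjusted p of 0.05. Simulated data were used to test it. Values in every library are given for the 3 called genes with the largest positive and the 3 with the largest negative difference in each averaged comparison and in the interaction (group mean of at least 5), the lysyl oxidases, 4 laminin chains and FN1. Others named were chosen after their values were seen. The genes and lists were chosen with earlier results of these data known. All 46 IDs found matched assembly ARS1.2, used for names. Alternatives were another pseudocount, filter and scaling, fits of the compared groups alone, without robust estimation or with a replicate block, and leaving out each library.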

Additional observations from a re-analysis of the deposited data

Results flagged for a closer look

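These genes are listed because a comparison differed between months or between males and females, by the test of the difference itself (limma, adjusted p under 0.05) and with both effects called in opposite directions. The comparisons share groups, so the lists are not independent of one another.

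The follicle type difference was not the same in October as in June for 37 of the 45 genes. The opposite calls, with October less June, were in LOXL2 (0.73), LAMA4 (0.36), AGRN (0.69), NPNT (0.61), FN1 (0.97), TNC (0.43), SPARC (1.11) and THBS1 (0.34), each positive. These effects are averages over the sexes: both calls were made within females for LOXL2, NPNT, TNC and SPARC, within males for AGRN and FN1, and in neither sex for LAMA4 and THBS1.

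The follicle type difference in October was not the same in males as in females for 31 genes. Male less female, the opposite calls were LOXL4 (-1.89), ELN (-1.96), MFAP5 (0.86), NID1 (-0.79), NPNT (-1.10), THBS2 (-1.99) and SMOC1 (-4.24). In June it was not the same for 37 genes, and the opposite calls were LOXL4 (-1.03), EFEMP1 (-2.59), MFAP2 (0.70), LAMC1 (0.52), NID1 (0.62), FN1 (-1.59), POSTN (-0.75), TNC (0.82), SPARCL1 (-2.76), THBS1 (-1.20) and SMOC2 (0.98).

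October against June differed between males and females for 30 genes in secondary cells. Male less female, the opposite calls were LOXL4 (-1.19), FBLN1 (1.19), FBLN2 (1.08), MFAP5 (2.40), LAMB1 (0.74), NID1 (-0.84), NID2 (1.05), AGRN (0.70), DPT (-1.63), THBS2 (-1.19), SMOC2 (-0.98), CTHRC1 (-1.57) and GLDN (-2.69). The count in primary cells was also 30, and the opposite calls were LOXL2 (1.32), ELN (-1.09), FBLN1 (-0.50), EFEMP1 (-0.999), LAMC1 (0.36), NID2 (1.63), THBS1 (-0.85), THBS2 (1.48), SMOC1 (3.14) and CTHRC1 (-1.28).

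Leaving out a single library ended 1 of the opposite calls in some of these. Averaged over the sexes, that held for LAMA4 and NPNT in October. Within females it also held for TNC in October and for NPNT in June. It held for the June effect of follicle type on EFEMP1 (0.11) and MFAP2 (-0.24) in females and on SMOC2 (0.12) in males. For the effect of month it held in secondary cells for LOXL4 in males (-0.30) and AGRN in females (-0.22), and in primary cells for FBLN1 in males (-0.17) and SMOC1 in females (-0.33).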

How the results depend on the processing

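The counts of the 45 genes called stayed within 1.5 times their values under each alternative, in all 17 comparisons. Leaving out 1 library at a time gave 30 to 36 for follicle type in October, 34 to 36 in June, 38 to 40 for month in secondary cells, 34 to 37 in primary cells and 37 to 38 for the interaction. Of 583 called gene and comparison pairs, 35 lost the call without some library, and 51 uncalled ones gained it. The direction turned in 2 pairs, both for TNN with a pseudocount of 0.1: male less female, the follicle type difference was 0.70 (limma adjusted p = 0.0132) in October and 0.85 (0.00201) in June, against -0.62 and -0.43 with a pseudocount of 1. With the replicate number as a block, 37 genes were called for follicle type in October, 35 in June, 41 for month in secondary cells and 35 in primary cells. Same-numbered libraries did not deviate together: the correlations over 28 pairs of groups ran from -0.281 to 0.348, and all 3 passed 0.1 in 1 of the 28. Rescaling to a common total moved the median of all genes by -0.12 in the male less female difference of month in secondary cells, and the split there was 16 higher and 14 lower, against 19 and 11. Depth is unknown, so limits on genes listed near 0 cannot be given.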
